A study of Xenopus laevis with 4 samples.

Results

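The extracellular matrix and integrin genes described here are the array features whose single platform gene symbol names a collagen, laminin, integrin, matrix metalloproteinase, TIMP, ADAM, ADAMTS, thrombospondin or syndecan gene, or is that of fibronectin (fn1), tenascin (tnc), versican (vcan), perlecan (hspg2), a nidogen (nid1, nid2), sparc, dystroglycan (dag1) or pleiotrophin (ptn). The rule was applied to symbols in lower case without the suffix L or S, which marks the copies of a gene on the 2 subgenomes of the allotetraploid frog Xenopus laevis. It found 91 of 11303 gene symbols, carried by 143 of 32539 probe sets. By their shared first letters it also took in itgb1bp2, an intracellular integrin-binding protein, and itgbl1, which is related to the integrin beta chains without being one.

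The samples were explants of presumptive ectoderm (animal caps), the sheet that forms the frog's mucociliary epidermis. Embryos were injected with synthetic mRNA at the 2-cell stage, caps were cut at stage 9 to 10 and kept on coverslips coated with fibronectin, in Danilchik's medium and BSA, until RNA was harvested at a time matching stage 12. ICD mRNA was on 2 arrays, DBM mRNA on 1 and HMM mRNA on 1. ICD is the customary name of the Notch intracellular domain, which switches the pathway on, while DBM customarily names an effector mutated in its DNA-binding part, which blocks it. HMM is not spelled out in the labels. Injection, explant culture and stage were shared by every group, and uninjected caps were not analysed here. The labels give no strain, clutch or number of embryos, and nothing says that the ICD arrays came from separate clutches, so p-values reflect the spread of these arrays alone, and that spread may be technical.

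Matrix proteins form the fibrils and sheets on which cells sit, integrins are the paired alpha and beta receptors that hold cells to them, and syndecans are membrane proteoglycans that bind matrix and growth factors through heparan sulfate chains. Metalloproteinases and ADAM proteases cut matrix and membrane proteins, and TIMPs inhibit metalloproteinases. In the amphibian gastrula, fibronectin made by the blastocoel roof is bound mainly by integrin alpha5 beta1 and guides cell movement, and ptn and its close relative midkine (mdk) are secreted heparin-binding growth factors.

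The values are MAS5 signals, a brightness per probe set. Array means after trimming were 150.7 and 376.8 for the ICD replicates 1 and 2, against 408.9 for DBM and 382.1 for HMM, so each array was rescaled to 1 common trimmed mean, and every signal below is a rescaled one unless called deposited. This multiplied ICD replicate 1 by 2.187, noise in dim probe sets included. Deposited signals of the spiked hybridization controls averaged 5694 and 5274 with ICD, 5440 with DBM and 5369 with HMM. Why ICD replicate 1 had a low mean was not tested. Of the markers of epidermal ectoderm, 31 of 32 probe sets lay above the level filter used below, and the signal summed over all 32 was 135587 and 97442 with ICD, against 111462 with DBM and 96644 with HMM. That sum is carried by a few bright genes such as krt70 and epcam, and single epidermal markers did move, as given with the other cell types at the end. Several endoderm and mesoderm markers also lay above the filter, among them foxa2.L, gata6.S and not.L, while every probe set of sox17a, sox17b, mix1, mixer, actc1, myod1 and actn3 lay under it. Single probe sets are named as annotated, and those of L and S copies can pick up each other's transcripts.

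Most of these genes gave too little signal for a test. The filter kept probe sets with a mean signal of at least 41.37 over the 4 arrays, the 40th percentile of all, and 43 of the 143 passed, for 30 of the 91 symbols. The other 100 had means between 1.73 and 38.8. They include the only laminin probe set (lamb2.L), every probe set of tenascin and versican, 21 of 26 collagen probe sets and 25 of 29 for metalloproteinases and TIMPs. A dim probe set may be a poor probe as well as a scarce transcript, so nothing is said of whether those genes were on. At the edge of the filter, adam17.L (38.8) and itga5.S (38.7) were left out and itgav.L (42.3) and 1 probe set of col1a2.L (44.5) were kept. Because a member that is bright in 1 group alone can pass through that group, the counts below describe the 43 probe sets and no more.

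**Figure D1:**
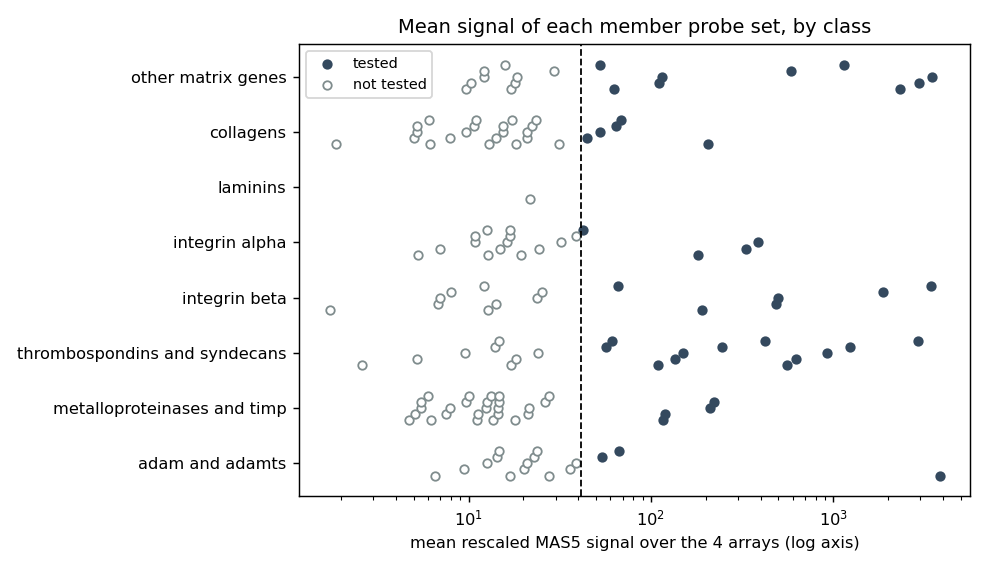
Mean rescaled MAS5 signal over the 4 arrays (log axis) of each of the 143 member probe sets, 1 point each, by class, with the level filter of 41.37 as a dashed line. Filled points (43) were tested and open points (100) were not. The laminin class lies wholly left of the line, and the metalloproteinase, collagen, ADAM, integrin alpha and integrin beta classes lie mostly left of it.

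The main comparison asked which matrix and integrin genes ICD caps expressed at another level than DBM and HMM caps. Pleiotrophin and both copies of sparc rose with ICD, 1 of 2 syndecan-4 L probe sets rose, and the type I collagen gene col1a2.L fell. Of the 43 probe sets 4 were higher, 2 were lower and 37 did not pass limma's test at an adjusted p of 0.05, which is 9.30% higher and 4.65% lower. Over all 19523 probe sets tested the shares were 1.90% higher and 2.04% lower, 3.93% in all. The sparc probe sets reached the filter level only with ICD, and the called ones of col1a2.L only with DBM and HMM. Those calls passed the filter through the groups where they were bright, so the members' shares only describe the 43. The median log2 difference of the 43 was 0.28, against -0.01 over all probe sets tested. Log2 values were taken after adding an offset of 17.99 to each signal, so differences of dim probe sets are understated.

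These calls rest on how the spread was estimated. Only the ICD pair gives a residual degree of freedom, 1 in all, and the fit borrows 5.82 prior degrees of freedom from all probe sets, an estimate that is itself imprecise with so few arrays. With the prior degrees of freedom halved, a setting chosen after seeing the data, limma called 0 of the 43 members and 0 of all 19523 probe sets, although 9 members and 2184 probe sets still had an unadjusted p under 0.05, against 10 and 2761 with the estimate as it stood. "Rose" and "fell" below refer to the fit with the estimated prior.

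Pleiotrophin had the largest difference of the 43. Its probe set Xl2.44502.1.S1_at (ptn.L, Entrez Gene 444715) gave 5354 and 5792 with ICD, against 544 with DBM and 133 with HMM. The ICD arrays lay far above the others and close to each other, and the deposited signals did not overlap either (2448.2 and 6620.8 against 674.7 and 154.3). The difference from the mean of DBM and HMM was 4.26 ± 0.21 (log2, SE), 19.2-fold (adjusted p = 4.19e-04). It was 9.94-fold against DBM (adjusted p = 0.00332) and 37.0-fold against HMM (adjusted p = 9.23e-04). Without the rescaling the call of ptn.L was lost, at a log2 difference of 3.56 from the mean of DBM and HMM (limma's adjusted p = 0.952). With the prior halved its adjusted p was 0.0654, and with DBM and HMM joined into 1 group the adjusted p was 0.0702 when ICD replicate 1 was left out and 0.105 when ICD replicate 2 was. A further probe set annotated to ptn.L (Xl2.900.1.S1_a_at) was not tested, with 8.53 and 25.4 with ICD, against 17.4 with DBM and 11.8 with HMM, all under the filter level, so nothing is read from it.

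Both copies of sparc, which encodes a secreted collagen-binding glycoprotein of basement membranes, rose. sparc.S gave 165 and 231 with ICD, against 31.5 with DBM and 13.7 with HMM. sparc.L gave 81.6 and 143 with ICD, against 23.6 with DBM and 1.55 with HMM. For both copies the ICD arrays were above the other arrays, on the deposited scale as well. The log2 differences were 2.43 ± 0.34 (SE, adjusted p = 0.0144) for sparc.S and 2.15 ± 0.37 (adjusted p = 0.0280) for sparc.L, or 5.39-fold and 4.45-fold. The DBM and HMM signals lie under the filter level, so these sizes depend on the offset, and they ran from 1.51 to 3.01 for sparc.S and from 1.12 to 3.24 for sparc.L over the settings. Of the 13 alternatives that kept them, sparc.S passed in 8 and sparc.L in 7. Both calls were lost without the rescaling (limma's adjusted p = 0.952 for each) and with the prior degrees of freedom halved. The call of sparc.L was lost with DBM and HMM as 1 group (adjusted p = 0.0911), and both were lost without HMM (0.0604 for sparc.S and 0.171 for sparc.L).

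Among the collagens, the fibrillar chain gene col1a2.L fell on both of its tested probe sets. Xl2.49126.1.S1_at gave 26.0 and 16.2 with ICD, against 120 with DBM and 112 with HMM. Xl2.49126.1.S1_a_at gave 6.34 and 14.8 with ICD, against 67.5 with DBM and 89.3 with HMM. The ICD arrays lay below the others in both, and probe sets of 1 gene are not independent measurements. They fell by 1.78 ± 0.34 (log2, SE, adjusted p = 0.0375) and by 1.76 ± 0.33 (adjusted p = 0.0386). All ICD signals are under the filter level, and over the settings the differences ran from -2.30 to -1.01 and from -2.59 to -0.86. Without the rescaling neither passed (limma's adjusted p = 0.952 for each). Both calls were lost without the level filter (adjusted p = 0.0618 for each), without DBM (0.117 and 0.0866) and without HMM (0.0782 and 0.104), and that of the dimmer one also with DBM and HMM as 1 group (0.0507). One more probe set of the gene was dim on every array (4.16 and 5.69 with ICD, 6.29 with DBM, 8.37 with HMM), and so were both probe sets of its partner chain col1a1.S, with means of 10.7 and 14.2.

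The other collagens tested did not pass. col18a1, the gene of a basement membrane collagen that yields endostatin, gave 85.3 and 81.5 with ICD, against 43.6 with DBM and 47.9 with HMM, on its S copy, where the groups did not overlap (log2 difference 0.67, adjusted p = 0.439). Its L copy gave 214 and 245 with ICD, against 226 with DBM and 133 with HMM, and overlapped (0.37, adjusted p = 0.741). The cartilage collagen gene col9a3.L gave 82.0 and 52.6 with ICD, against 55.7 with DBM and 19.6 with HMM (0.68, adjusted p = 0.486).

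The fn1.S mRNA of the caps showed no detectable difference. It encodes fibronectin, the protein the explants were also plated on, and protein was not measured. The 3 tested probe sets of fn1.S gave 3494 and 3700, 2771 and 2510, and 1261 and 1109 with ICD. The same probe sets gave 3282, 2071 and 1122 with DBM, and 3492, 1978 and 1114 with HMM. Within each probe set the arrays lay close together, and in 2 of the 3 both ICD arrays were on top. The differences were 0.09 (95% interval -0.46 to 0.64), 0.38 (-0.14 to 0.90) and 0.08 (-0.42 to 0.58) on the log2 scale, with limma's adjusted p of 0.972, 0.559 and 0.971. A difference of 2-fold lies outside each interval, but the intervals rest on the imprecise estimated prior. Without the rescaling all 3 estimates turned negative (-0.64, -0.34 and -0.64). A further fn1.S probe set was dim throughout, at 19.7 and 9.62 with ICD, against 1.05 with DBM and 18.3 with HMM.

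The subunits of the fibronectin receptor did not pass either. itgb1, the beta1 chain shared by many integrins, gave 3198 and 3056 with ICD, against 3901 with DBM and 3570 with HMM, on the brighter L probe set, where the ICD arrays were the lowest (-0.25, 95% interval -0.80 to 0.29). On its S copy the ICD arrays, 1492 and 2561, lay on either side of DBM (2091) and came above HMM (1331). On the second L probe set both ICD arrays lay between the others (412 and 561 with ICD, 595 with DBM, 365 with HMM). The alpha5 gene itga5.L gave 223 and 243 with ICD, against 146 with DBM and 111 with HMM, on 1 probe set (0.78, adjusted p = 0.281). Its other tested probe set gave 472 and 387 with ICD, against 397 with DBM and 298 with HMM (0.30, adjusted p = 0.768). itgav.L, the alphaV chain, gave 26.2 and 49.8 with ICD, against 59.7 with DBM and 33.4 with HMM. The estimates for itgb1 were thus mixed in sign within the L copy (-0.25 and 0.04) and 0.23 for the S copy. None of these passed, and without the rescaling the second L probe set and the S copy were negative too (-0.65 and -0.49). The S copy of itga5 was not tested and gave 47.0 and 48.1 with ICD, against 34.7 with DBM and 24.8 with HMM.

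**Figure D2:**
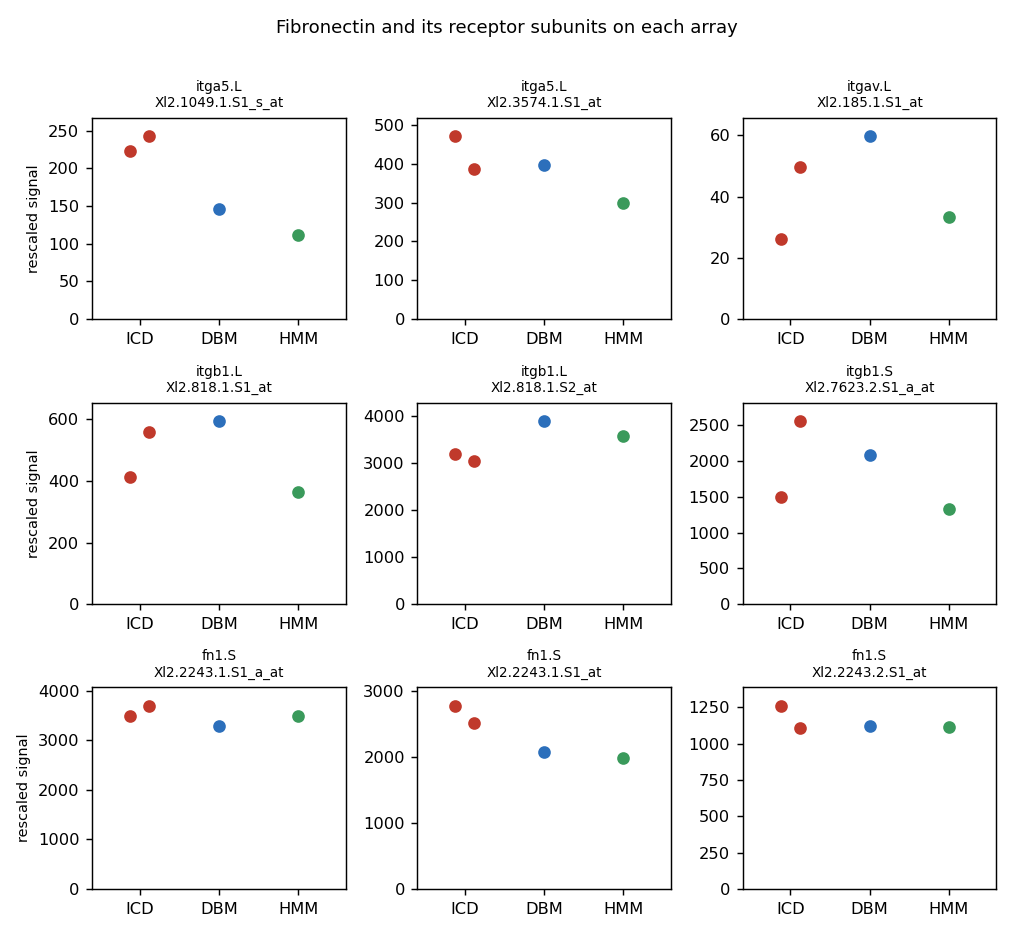
Rescaled MAS5 signal (linear axes from 0) of each tested probe set of fn1.S, itga5.L, itgav.L, itgb1.L and itgb1.S on the 2 ICD arrays, the DBM array and the HMM array, 1 point per array. The fn1.S probe sets sit close together on all arrays, and the itga5.L probe set Xl2.1049.1.S1_s_at has both ICD arrays (223 and 243) above DBM (146) and HMM (111).

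Of the remaining integrin genes, itga3.L came nearest to the threshold. The alpha3 chain pairs with beta1 into a laminin receptor. Its tested probe set gave 402 and 525 with ICD, against 237 with DBM and 158 with HMM, with both ICD arrays above the others (1.17 ± 0.27, SE, adjusted p = 0.0763). The estimate stayed short of the threshold in all 14 alternatives, at a lowest adjusted p of 0.0547. itgb5.L, whose product pairs with alphaV, gave 612 and 522 with ICD, against 474 with DBM and 395 with HMM, on 1 probe set (0.37, adjusted p = 0.611). On another, it gave 228 and 93.8 with ICD, against 122 with DBM and 324 with HMM, where the ICD arrays were over 2-fold apart. itgb1bp2.L gave 74.6 and 85.6 with ICD, against 66.3 with DBM and 36.7 with HMM (0.53, adjusted p = 0.599). In all, 0 of 4 alpha and 0 of 6 beta probe sets passed limma's test, against 3.93% of all probe sets tested. The beta class counts itgb1bp2.L, which is not an integrin chain. At an unadjusted limma p under 0.05 there were 2 alpha probe sets (itga3.L and 1 of itga5.L) and 0 beta probe sets. Over all probe sets tested 2761 of 19523 reached that level, and nothing is read from counts in classes this small.

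Thrombospondins and syndecans gave 1 call among 12 probe sets, against 3.93% of all probe sets tested. sdc4 encodes syndecan-4, a coreceptor for fibronectin in focal adhesions, and its L probe set Xl2.16538.2.A1_at gave 4011 and 4038 with ICD, against 2017 with DBM and 1656 with HMM. It rose by 1.13 ± 0.22 (log2, SE), 2.19-fold (adjusted p = 0.0421). The other L probe set gave 634 and 927 with ICD, against 440 with DBM and 506 with HMM (0.68, adjusted p = 0.288), again with both ICD arrays on top. The brighter sdc4.S probe set gave 1157 and 1629 with ICD, against 1268 with DBM and 921 with HMM (0.34, adjusted p = 0.692). The other sdc4.S probe set gave 493 and 696 with ICD, against 562 with DBM and 487 with HMM (0.16, adjusted p = 0.924). The groups overlapped in both, and neither passed. The deposited signals of the called probe set overlapped between groups (1834.1 and 4615.6 with ICD, 2502.4 with DBM, 1919.4 with HMM), so its separation depends on the rescaling. Without the rescaling it did not pass (limma's adjusted p = 0.952). The call was lost without the filter (adjusted p = 0.0753), without the intensity trend (0.101), without DBM (0.0892) and without HMM (0.169).

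The 6 probe sets of sdc2, which encodes syndecan-2, had differences between -0.04 and 0.44, and none passed. The brightest sdc2.L probe set gave 1055 and 811 with ICD, against 977 with DBM and 843 with HMM. The other sdc2.L probe sets gave 136 and 194 with ICD, against 171 with DBM and 99.9 with HMM, and 236 and 249 with ICD, against 287 with DBM and 216 with HMM. In all 3 the groups overlapped. The brightest sdc2.S probe set gave 378 and 589 with ICD, against 494 with DBM and 238 with HMM. The other sdc2.S probe sets gave 62.3 and 64.1 with ICD, against 72.0 with DBM and 45.3 with HMM, and 69.3 and 164 with ICD, against 157 with DBM and 48.0 with HMM. Here too the groups overlapped in each. sdc1.L gave 115 and 181 with ICD, against 173 with DBM and 75.9 with HMM. thbs1.S, the gene of a matricellular protein that binds integrins and TGF-beta, gave 41.3 and 112 with ICD, against 36.5 with DBM and 37.6 with HMM, with ICD arrays over 2-fold apart (0.67, adjusted p = 0.644).

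Of the metalloproteinase and TIMP probe sets 0 of 4 passed limma's test, and 1, mmp3.L, had an unadjusted p under 0.05. Over all 19523 probe sets tested by limma 3.93% passed, and 2761 had an unadjusted p under 0.05. mmp3.L, the gene of stromelysin-1, which in mammals cuts many matrix proteins, gave 127.5 and 243 with ICD, against 88.5 with DBM and 16.8 with HMM. Both ICD arrays were on top (1.68 ± 0.39, SE, adjusted p = 0.0774), and it passed only with quantile normalization (adjusted p = 0.0395) of the 13 alternatives that kept it. The membrane-anchored protease gene mmp15.L gave 232 and 207 with ICD, against 191 with DBM and 211 with HMM. The matrilysin gene mmp7.L gave 223 and 209 with ICD, against 196 with DBM and 258 with HMM. The groups overlapped in each (0.12 and -0.06, adjusted p = 0.969 and 0.985). timp-1.L, a metalloproteinase inhibitor gene, gave 60.1 and 137 with ICD, against 183 with DBM and 88.3 with HMM (-0.41, adjusted p = 0.837).

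Of 3 ADAM probe sets 0 passed limma's test, against 3.93% of all probe sets tested. At an unadjusted limma p under 0.05 there were 0 of the 3, against 2761 of all 19523. adam10.S, the gene of the sheddase that cuts Notch and cadherins at the membrane, gave 3256 and 4044 with ICD, against 4463 with DBM and 3630 with HMM. The arrays overlapped, and the difference of -0.15 had a 95% interval of -0.74 to 0.45. A second adam10.S probe set gave 49.4 and 96.7 with ICD, against 68.0 with DBM and 52.8 with HMM, an estimate of opposite sign (0.17). adam33.L gave 32.6 and 75.9 with ICD, against 75.3 with DBM and 32.6 with HMM, so each ICD array matched a different one of the others. Of the basement membrane and receptor genes, nid2.L gave 729 and 497 with ICD, against 398 with DBM and 711 with HMM. Dystroglycan, a laminin receptor, gave 91.0 and 180 with ICD, against 115 with DBM and 73.6 with HMM, on dag1.L, and 52.5 and 72.4 with ICD, against 48.6 with DBM and 36.1 with HMM, on dag1.S. The estimates were 0.17 for nid2.L and 0.41 for each dag1 copy, and none passed.

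**Figure D3:**
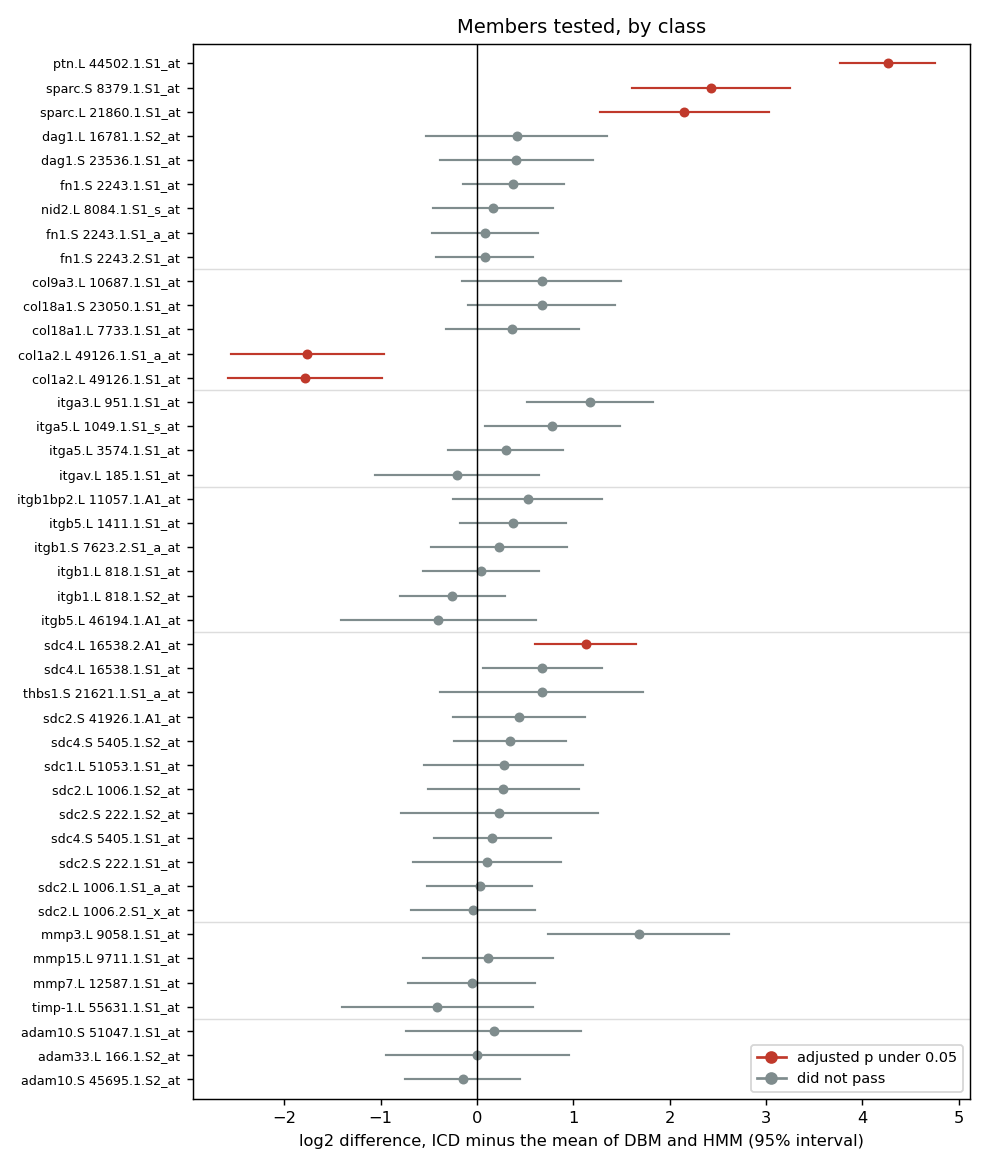
Log2 difference of ICD minus the mean of DBM and HMM with its 95% interval for the 43 member probe sets tested, ordered by class and, within a class, by size. The 6 probe sets past an adjusted p of 0.05 are ptn.L, sparc.S, sparc.L and 1 of sdc4.L on the higher side and both of col1a2.L on the lower side, and the intervals of most others span 0.

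Against DBM alone, 1 of the 43 passed, ptn.L, which rose, and 0 fell. Over all probe sets tested 2.32% passed, 0.840% higher and 1.48% lower. Against HMM alone 3 of 43 were higher by limma, ptn.L, sparc.S (2.75 on the log2 scale, adjusted p = 0.0311) and sparc.L (2.70, adjusted p = 0.0403), and 0 were lower. Over all probe sets 1.74% passed against HMM, 1.23% higher and 0.507% lower. These comparisons use the same ICD arrays and are not independent of each other or of the main one. In the main comparison limma gave an unadjusted p under 0.05 for 2761 of all 19523 probe sets, and for 10 of the 43. The median difference of the 43 was 0.11 against DBM and 0.50 against HMM, while over all probe sets tested it was 0.02 and -0.05.

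For 15 of the 43 probe sets both ICD arrays lay above DBM and HMM, which is 34.9%, against 19.3% of all probe sets tested. For 3, or 6.98%, both lay below, against 22.8% of all. Those below were the col1a2.L pair and an itgb1.L probe set. The 15 were ptn.L, both sparc copies, both sdc4.L and 2 of the 3 tested fn1.S probe sets, and 1 probe set each of itga3.L, itga5.L, itgb5.L, itgb1bp2.L, mmp3.L, col18a1.S, dag1.S and thbs1.S. On the deposited signals only ptn.L and both sparc copies kept both ICD arrays on top, and the rest of the 15 overlapped. Probe sets and copies of 1 gene among them are not independent measurements. The rescaling decides much of this: without it the median difference over all probe sets was -0.665, against -0.014 with it, and that of the members was -0.359, against 0.276. Relative to all probe sets the members' median was thus higher with and without the rescaling, but its size depended on the filter and on the ICD array. Without the level filter the members' median was 0.12, against 0.008 over all probe sets. With DBM and HMM joined into 1 group it was 0.45 without ICD replicate 1, against -0.004 over all. Without ICD replicate 2 it was 0.13, against -0.04. The shift of the members' median was smaller against DBM than against HMM. The members' median of DBM minus HMM was 0.383, against -0.0248 over all probe sets tested, with 1 array on each side. The source of the shift was not tested.

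DBM and HMM had 1 array each, so their difference has no replicate check and no test. Of the 43 probe sets 5 were 2-fold or more higher with DBM, 11.6% against 3.86% of all probe sets tested, and 1 was 2-fold or more lower, 2.33% against 2.88%. Those higher were ptn.L (3.72-fold), mmp3.L (3.06-fold), a probe set of sdc2.S (2.65-fold), sparc.L (2.13-fold) and sdc1.L (2.04-fold), and the lower one was an itgb5.L probe set (2.44-fold). In ptn.L, sparc.L and mmp3.L the order of the arrays was therefore ICD, then DBM, then HMM. The sparc.L signals with DBM (23.6) and HMM (1.55) and the mmp3.L signal with HMM (16.8) lie under the filter level. Their folds thus depend on the offset, and sparc.L is in the count only because its ICD signals passed the filter. For comparison, the ICD arrays were 2-fold or more apart for 3 of the 43, or 6.98%, against 5.61% of all probe sets. The median size of the difference between the ICD arrays was 0.43 for the members and 0.29 for all, and that between DBM and HMM was 0.45 for the members and 0.30 for all.

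Genes with more than 1 tested probe set, counting L and S copies together, numbered 11, and in 7 of them every probe set had the same sign in the main comparison. Those with mixed signs were adam10, itgb1, itgb5 and sdc2, none of which held a call.

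Of the other genes of matrix assembly and adhesion, taken as a list of 105 symbols (lysyl oxidases, collagen-modifying enzymes, fibrillins, proteoglycans, focal adhesion proteins and the like), 56 had a probe set and 47 of 100 probe sets were tested. Of these, 2 rose, 1 fell and 44 did not pass, 6.38% called, against 3.93% of all probe sets tested. The list was chosen with earlier results of these data known and includes midkine, the close relative of ptn. Its share therefore only describes the list, and nothing is read from it about matrix assembly. The median log2 difference was 0.10, against -0.01 over all probe sets tested. Both that rose were copies of midkine. mdk.L gave 2749 and 3164 with ICD, against 811 with DBM and 282 with HMM, 5.95-fold (adjusted p = 0.00208). mdk.S gave 1602 and 2569 with ICD, against 892 with DBM and 357 with HMM, 3.51-fold (adjusted p = 0.0186). The one that fell was a probe set of tll1.S, a tolloid-type protease gene, with 400 and 313 with ICD, against 1017 with DBM and 754 with HMM, 2.40-fold lower (adjusted p = 0.0372), while a second probe set of that gene did not pass (-0.47, adjusted p = 0.432). Both midkine copies also ran in the order ICD, DBM, HMM. With DBM and HMM as 1 group, and with the prior halved, limma called 0 of the 47.

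**Figure D4:**
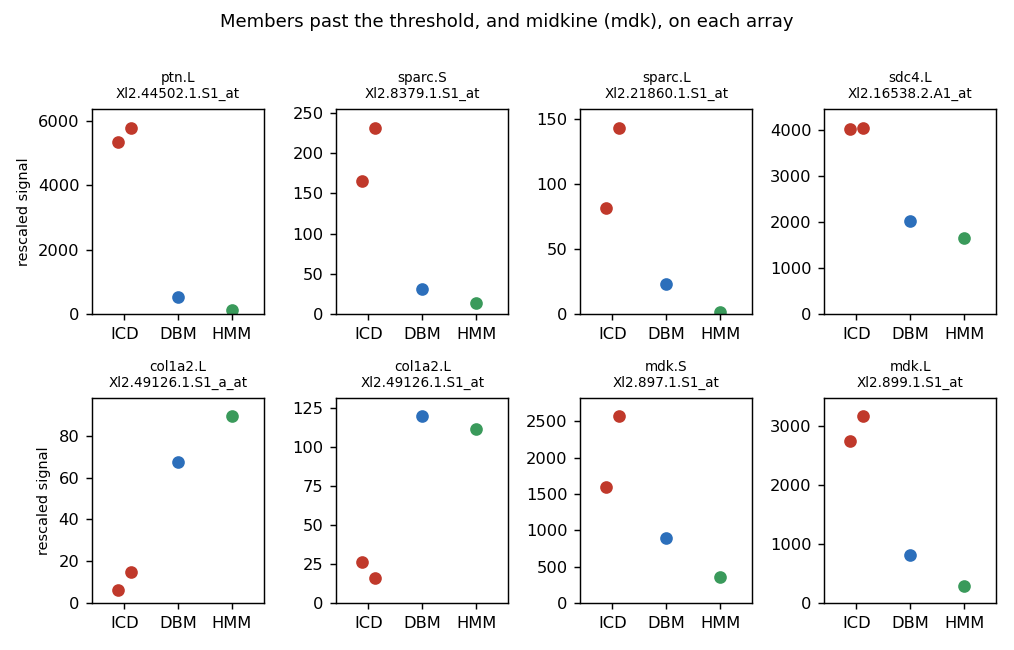
Rescaled MAS5 signal (linear axes from 0) on the 2 ICD arrays, the DBM array and the HMM array, 1 point per array, for the 6 member probe sets past the threshold and for both copies of midkine. In ptn.L, both sparc copies, sdc4.L and both mdk copies the ICD points lie above DBM and DBM above HMM, and in both col1a2.L probe sets the ICD points lie lowest.

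Markers of other cell types moved between the same groups, and sums are over every probe set of a list, tested or not. Over all probe sets tested 1.90% rose and 2.04% fell. Some called markers reached the filter level only in the groups where they were bright, such as foxa2.L with ICD. For hhex.L, gata6.S and the multiciliate cell gene mcidas.S those groups were DBM and HMM. The marker counts therefore only describe the probe sets tested. Bright probe sets can carry a sum. For the neural plate and crest these are Xl2.45055.1.S1_at and Xl2.45266.2.S1_at of pax3.L, which did not pass (log2 differences -0.25 and 0.06). Of 31 tested probe sets of the epidermal list 10 rose and 3 fell. Those that rose were 6 of the 7 for the keratin gene krt19, both for the basal-cell factor tp63.S, and 1 each for dlx5.L and the claudin gene cldn6.1.S, and krt19.L on Xl2.5482.1.S1_at gave 1240 and 2682 with ICD, against 424 with DBM and 159 with HMM (6.58-fold, adjusted p = 0.0117). Those that fell were itln1.L, grhl3.S and krt12.4.S, and itln1.L, the gene of a secreted intelectin of the embryonic skin, gave 640 and 740 with ICD, against 11390 with DBM and 5003 with HMM (10.7-fold lower, adjusted p = 0.00104). Of 17 tested probe sets of the neural plate and crest 8 rose and 0 fell. The rises were in probe sets of sox3.S, sox8.L, sox9.L, sox9.S and zic1.S. Tested probe sets of sox2.L, sox3.L, ncam1, tubb2b.S and pax3.L did not pass, and those of snai2, sox10, foxd3 and twist1 lay under the filter. The signal summed over all 29 probe sets of the list was 25213 and 26356 with ICD, against 18518 with DBM and 18071 with HMM. Of 13 for multiciliate cells 0 rose and 11 fell (summed signal 6188 and 6702 with ICD, against 32724 with DBM and 18403 with HMM), and of 11 for ionocytes 0 rose and 8 fell (1014 and 1358 with ICD, against 13272 with DBM and 7764 with HMM). Of 10 for endoderm 1 rose (foxa2.L) and 4 fell (gata4.S, gata5.S, gata6.S and hhex.L), with sums of 883 and 1315 with ICD, against 1863 with DBM and 1776 with HMM. Of 6 for mesoderm and muscle 1 rose, the notochord gene not.L, and 0 fell, with sums of 965 and 1165 with ICD, against 718 with DBM and 419 with HMM. The blood and vascular list had 1 tested probe set of 15, for spib.S, which rose. The part of these cell types in the differences of ptn.L, sparc, sdc4.L and col1a2.L was not tested, and in bulk RNA fewer cells of a type and less RNA per cell cannot be told apart.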

How the data were processed

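Animal-cap RNA was measured on 4 Affymetrix arrays. The deposited table holds, per the submitters' processing notes, the authors' MAS5 signals (version not given), that is, a linear intensity for each probe set on each array. It lists 32635 probe sets, including 96 controls. Symbols come from the platform annotation (15495 probe sets with 1 symbol, 279 with several, 16765 with none), and 142 of the 143 members were found in the RefSeq gene table (assembly Xenopus_laevis_v10.1) by Entrez Gene identifier, which changed 0 of their symbols.

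Here each array was rescaled to the common 2% trimmed mean over non-control probe sets. To take log2 values, 17.99 was added to each signal (0.25 of the median, 71.95), and probe sets with a mean under 41.37 were left out. For the other 19523, limma 3.58.1 was run in R 4.3.3 (lmFit with a mean for each injected RNA, eBayes with an intensity trend, two-sided, Benjamini-Hochberg adjustment over all of them, threshold 0.05). There is 1 residual degree of freedom, and DBM and HMM, with 1 array each, are taken to spread as the ICD pair does. Fold changes are on the log2 scale with the offset, and the number of arrays limits their precision. The fit was tested on simulated data, where 1 residual degree of freedom estimated the prior degrees of freedom poorly, so a setting with them halved was added.

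The members and lists were chosen with earlier results of these data known. Values on every array are given for members past the threshold, for the 3 brightest probe sets of each class and for the other tested copies and probe sets of those genes, while their untested probe sets, all under the filter, are given only in part. The other tested members given with values were added after their values were seen. Genes of the assembly and adhesion list are named where they passed the test.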

Additional observations from a re-analysis of the deposited data

How the results depend on the processing

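Of 466 values of 34 member probe sets under 14 alternatives, 385 kept their direction and their side of the threshold, 38 kept the direction and lost the call, 1 gained it and 42 changed sign, none of them for a probe set called in the comparison as reported. Member calls against the mean of DBM and HMM, 6 as reported, were 7 with quantile normalization, 6 with control probe sets in the trimmed mean and with either offset, 5 without the intensity trend, 4 with DBM and HMM as 1 group, 3 without the filter, 2 under a stricter filter (60th percentile), and 0 without rescaling and with the prior degrees of freedom halved. Over all probe sets tested limma called 4.94% with quantile normalization and 4.13% with control probe sets in the trimmed mean. The larger and smaller offset gave 3.81% and 3.91%, and the fit without the trend 2.63%. With DBM and HMM as 1 group the share was 2.11%, without the filter 1.59% and under the stricter one 4.91%. Leaving out 1 array gave 0 to 3 member calls: without DBM there were 3, without HMM 1, and without either ICD array, with the other groups joined, 0. Without rescaling limma called 0 of 19527 probe sets, 132 and 1 member having an unadjusted p under 0.05, since the gap between the ICD arrays then entered the spread. Calls against DBM, 1 as reported, were 2 with quantile normalization and 0 without rescaling or with the prior halved. Calls against HMM, 3 as reported, were 5 with quantile normalization, 1 under the stricter filter and 0 without rescaling or with the prior halved. The members 2-fold apart between DBM and HMM, 6 as reported, numbered 10 without rescaling and 2 with the larger offset of 1 times the median. They numbered 11 with the smaller offset of 0.05 times, and 2 under the stricter filter. For these settings the number over all probe sets was not counted, so nothing is read from those member counts. Calls in the assembly and adhesion list, 3 as reported, were 5 with quantile normalization and 0 with the prior halved or with DBM and HMM as 1 group. Over all probe sets, 768 calls as reported became 518 without the filter, 513 without the trend, 337 without DBM, 427 without HMM, 411 when DBM and HMM formed 1 group, and then 150 when ICD replicate 1 was dropped and 62 when ICD replicate 2 was. Without rescaling the estimates that turned negative were adam10.S (-0.33), adam33.L (-0.44), col18a1.L (-0.28), fn1.S (-0.64, -0.34 and -0.64), itga5.L (-0.40), itgb1.L (-0.65), itgb1.S (-0.49), itgb5.L (-0.33), mmp15.L (-0.55), sdc2.L (-0.69 and -0.34), sdc2.S (-0.42, -0.31 and -0.25), sdc4.L (-0.020) and sdc4.S (-0.54 and -0.37). With quantile normalization 1 probe set of sdc2.L turned positive (0.019). Estimates without DBM and without HMM lay on opposite sides of 0 for adam33.L (0.45 and -0.44), itgb1.L (0.38 and -0.30), itgb1.S (0.55 and -0.096), itgb5.L (-1.04 and 0.25), mmp7.L (-0.24 and 0.13), sdc2.L (0.13 and -0.077, 0.62 and -0.064, 0.15 and -0.23) and sdc2.S (0.36 and -0.15, 0.93 and -0.47, 0.94 and -0.062). With the other groups joined, leaving out ICD replicate 1 turned the sign of adam10.S (0.0066), fn1.S (-0.011) and sdc2.L (-0.16 and 0.00019), and leaving out ICD replicate 2 that of adam10.S (-0.21), adam33.L (-0.44), itgb1.L (-0.17), itgb1.S (-0.16), itgb5.L (0.17), sdc2.S (-0.30) and sdc4.S (-0.082). Apart from the missing rescaling and the smaller sets of probe sets or arrays, the cause of these shifts was not tested. No paired analysis was possible because the groups share only 1 replicate number. Signal limits the dim members: 100 of 143 had no test. The halved prior and the control probe sets in the trimmed mean were chosen after seeing the data, and so were the alternatives for DBM against HMM.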
